A study of Mus musculus with 6 samples.

Results

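The genes of the proteasome, the machine that degrades ubiquitin-tagged proteins, were compared between dermal cells given a pair of small molecules and their solvent controls. Members were all mouse genes whose symbol begins with Psm, then a letter from a to g, then a digit, without the immunoproteasome genes Psmb8, Psmb9 and Psmb10. Each needed a probe set that the platform annotation assigns to a single gene symbol, and the probe set with the highest mean over all 6 arrays stood for the gene. This gave 47 members among 19938 genes, and 45 of them are proteasome genes: 8 alpha and 8 beta genes of the core, 6 ATPase and 3 other genes of the base, 8 lid genes, 5 genes for activators or an inhibitor, and 7 assembly chaperone genes. The remaining 2, Psmc3ip and Psme3ip1, encode proteins named for binding a proteasome protein and are kept apart. The mean level over the arrays chose the probe set in the 5 genes that have several, and the contrast between groups did not enter the choice.

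The cells came from the skin of newborn C57BL/6 mice and were kept in culture medium for 2 days. The group called FR received forskolin and RepSox, each at 20 μM, and the group called DMSO is named for the solvent (3 arrays each). Forskolin switches on adenylyl cyclase and thereby raises cyclic AMP, and RepSox blocks the kinase of the type I TGF-β receptor. The labels name no sorting step, cell line or passage, and are silent on whether the arrays of a group stem from different dishes or litters. Each p-value thus measures the spread among arrays, part of which may be technical.

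As background, the proteasome is a barrel, the core particle, capped by a regulatory particle. The barrel has outer rings of alpha subunits, which gate its entry, and inner rings of beta subunits, of which Psmb5, Psmb6 and Psmb7 carry the proteolytic sites. The base of the regulatory particle holds a ring of ATPases that unfold substrates, and the lid removes their ubiquitin chains. Dedicated chaperones guide assembly, and the transcription factor Nfe2l1 drives subunit genes together when proteasome capacity falls short.

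Values are log2 RMA values, and a change is given as FR minus DMSO group mean, so that a negative value means less RNA with FR. Over all probe sets the array medians ranged from 5.983 to 6.002 in DMSO and from 6.015 to 6.074 in FR. The fibroblast markers, with mean levels from 10.94 to 11.00 on the DMSO arrays and from 10.66 to 10.72 on the FR arrays, fit the dermal label; 3 of 10 rose and 6 fell. Keratinocyte markers rose in 9 of 12 cases (mean level 6.11 to 6.18 in DMSO and 7.06 to 7.19 in FR), adipocyte markers in 6 of 6 (7.07 to 7.19 and 9.00 to 9.19) and skeletal muscle markers in 6 of 8 (5.70 to 5.77 and 6.42 to 6.50). Immune markers rose in 2 of 8 cases (5.33 to 5.39 and 5.40 to 5.56) and endothelial markers in 2 of 6 (4.99 to 5.07 and 5.26 to 5.30). Set against 5.77, the 95th percentile of 1027 olfactory receptor genes, 5 of 8 immune and 5 of 6 endothelial markers lay below in both groups, among them the leukocyte gene Ptprc (4.21 and 4.22) and the endothelial gene Pecam1 (4.94 and 5.11). Above it in both groups lay Cd68 (6.71 and 6.87), Cd3e (6.23 and 6.24) and Cdh5 (5.88 and 5.91). The immune and endothelial markers that rose all lay below 5.77 in both groups. They were Cd74 (4.69 and 5.02), Fcer1g (4.83 and 5.15), Tek (5.09 and 5.62) and Emcn (4.34 and 5.02). The olfactory receptor genes themselves had a median change of 0.139. The part of the marker shifts in the changes of proteasome genes was not tested, and in such bulk RNA fewer cells of a type and less RNA per cell cannot be told apart.

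Some proteasome genes changed, each by less than 2-fold. With FR, 4 of the 47 rose and 8 fell, and 35 did not pass the threshold (limma, Benjamini-Hochberg adjusted p under 0.05 over all 19938 genes). Over all genes 27.9% were called, 13.4% higher and 14.5% lower, so the members' shares of 25.5% called, 8.51% higher and 17.0% lower lie near that background. Changes ran from -0.64 for Psmd10 to 0.44 for Psmg3. The median was -0.09, against 0.05 over all genes. It was negative under every scaling tried, from -0.15 with arrays centred on their medians to -0.04 with cyclic loess. The FR and DMSO arrays did not overlap for 26 of the 47, or 55.3%, against 43.9% of all genes.

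Most members are bright, and bright genes as a whole leaned downward. Of 5510 genes with a mean level of at least 7.5, 41.5% were called, 13.5% higher and 28.0% lower, and their median change was -0.09. Of the 38 members at that level, 2 rose and 6 fell, or 21.1% called, with a median of -0.12. The FR and DMSO arrays did not overlap for 3420 of the 5510 genes and for 21 of the 38 members. In non-overlap the members thus showed no excess over genes of that level. This cut on level was chosen after the data were seen. Under the olfactory percentile lay 2 members, the testis gene Psma8 and the thymus gene Psmb11. The calls changed when an array was left out. The number of members lower was 4 without DMSO replicate 1, 2 or 3 or FR replicate 3. The number higher was 1 without DMSO replicate 1 and 2 without DMSO replicate 2. Calls over all genes fell as well, from 5559 to 4190, 4033 and 4188 without DMSO replicate 1, 2 and 3. They were 4496 without FR replicate 3 and rose to 5914 without FR replicate 1. Passing in all 15 alternatives tried were 5 of the 12, namely Psmd10, Psmd8, Psmd5, Psmd7 and Psmg3.

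**Figure D1:**
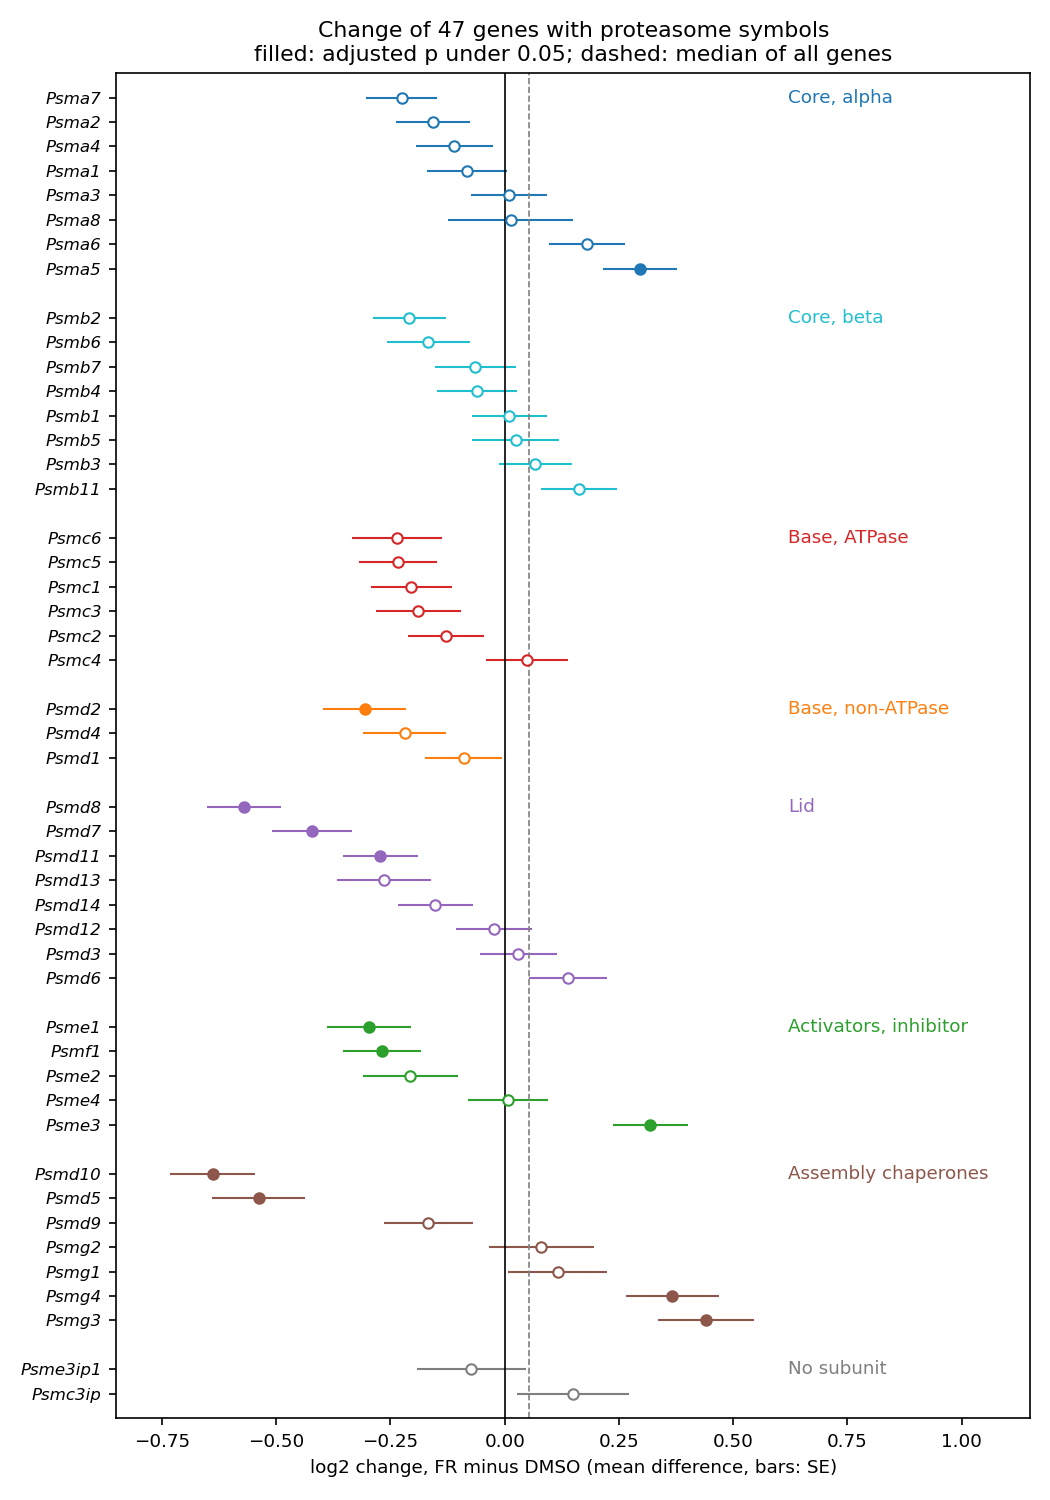
Log2 change with its standard error for the 47 genes, grouped by place in the proteasome, with filled points for adjusted p under 0.05 and a dashed line at the median of all genes. Core genes lie on both sides of 0 with 1 filled point, Psma5, and 5 of 6 ATPase genes lie left of 0 with open points, while the filled points of the lid lie left of 0 and those of the assembly chaperones on both sides.

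**Figure D2:**
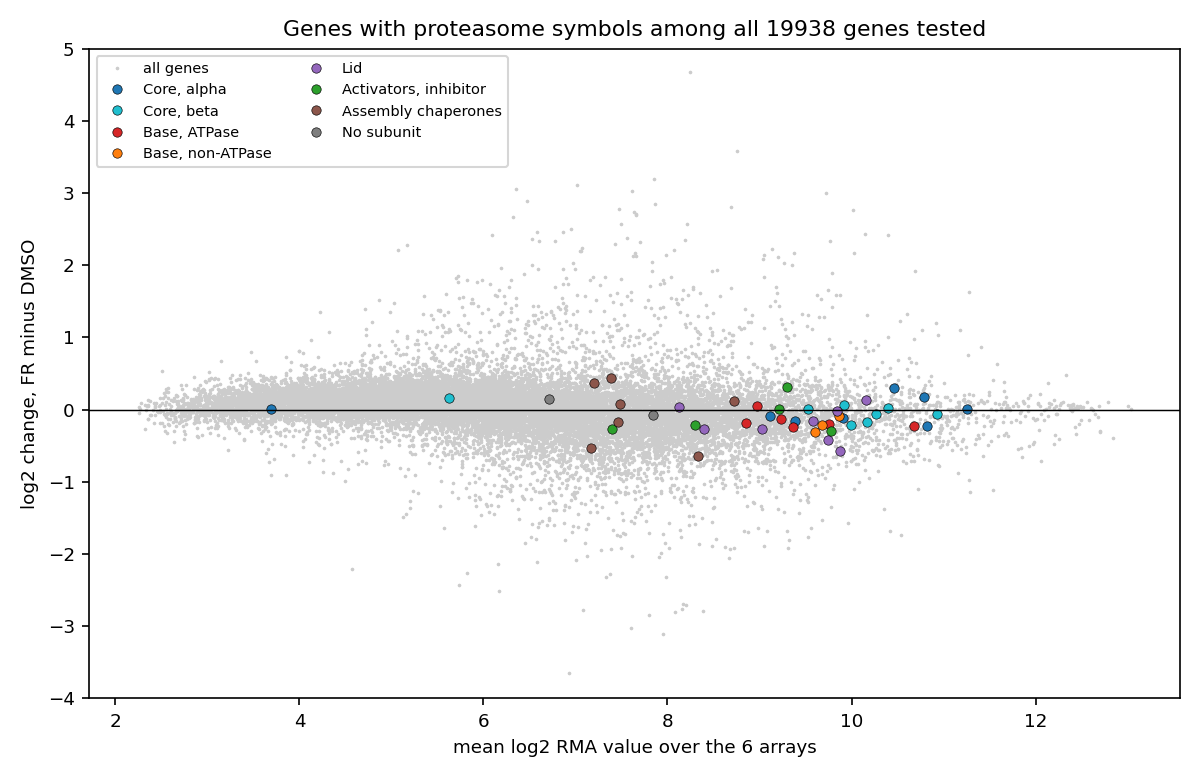
Log2 change (vertical) against mean log2 RMA value over the 6 arrays (horizontal) for all 19938 genes in grey and the 47 members in colour. The members stay between -0.64 and 0.44, inside the cloud of genes of like level, and most lie above a level of 7.5.

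Promoter sequences were set beside these changes. RefSeq windows of 250 bases before the transcription start (GRCm38.p6) were found for 39 of the 47 genes, in 43 windows. Those without an entry are Psma8, Psmb1, Psmb2, Psmb7, Psmc3, Psmd3, Psmd7 and Psmg2. Each window was searched on both strands for TGACNNNGC, the antioxidant response element that Nfe2l1 and Nfe2l2 bind, for TGACGTCA, the cyclic AMP response element that CREB binds, and for CCAAT, the box bound by NF-Y. The windows shown are those of the lid gene and the chaperone gene with the largest falls (Psmd8, Psmd10), of the chaperone pair that rose (Psmg3, Psmg4) and of the catalytic genes that hold the antioxidant element (Psmb5, Psmb6). Letters run 5′ to 3′ on the gene's strand, and capitals mark a match to any of the 3 motifs.
Psmd8, chr7:29180674-29180923, minus strand: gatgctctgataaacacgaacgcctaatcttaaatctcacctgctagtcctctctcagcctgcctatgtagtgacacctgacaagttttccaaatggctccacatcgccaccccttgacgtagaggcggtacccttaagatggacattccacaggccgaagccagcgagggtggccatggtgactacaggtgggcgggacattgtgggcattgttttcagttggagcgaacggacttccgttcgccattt
Psmd10, chrX:140956712-140956961, minus strand: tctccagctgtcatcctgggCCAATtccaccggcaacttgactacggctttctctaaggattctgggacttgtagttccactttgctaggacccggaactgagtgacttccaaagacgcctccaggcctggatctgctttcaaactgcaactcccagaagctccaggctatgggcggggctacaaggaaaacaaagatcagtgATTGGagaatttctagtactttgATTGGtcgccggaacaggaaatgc
Psmg3, chr5:139826895-139827144, minus strand: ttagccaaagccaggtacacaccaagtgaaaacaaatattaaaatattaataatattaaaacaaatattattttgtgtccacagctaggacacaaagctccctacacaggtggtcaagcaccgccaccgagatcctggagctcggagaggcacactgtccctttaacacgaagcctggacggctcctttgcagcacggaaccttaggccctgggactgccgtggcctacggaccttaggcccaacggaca
Psmg4, chr13:34162714-34162963, plus strand: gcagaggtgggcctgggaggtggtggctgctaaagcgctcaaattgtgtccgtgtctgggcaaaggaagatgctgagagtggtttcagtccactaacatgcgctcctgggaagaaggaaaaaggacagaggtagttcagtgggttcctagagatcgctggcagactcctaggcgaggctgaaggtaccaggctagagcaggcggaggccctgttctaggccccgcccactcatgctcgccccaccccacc
Psmb5, chr14:54617996-54618245, minus strand: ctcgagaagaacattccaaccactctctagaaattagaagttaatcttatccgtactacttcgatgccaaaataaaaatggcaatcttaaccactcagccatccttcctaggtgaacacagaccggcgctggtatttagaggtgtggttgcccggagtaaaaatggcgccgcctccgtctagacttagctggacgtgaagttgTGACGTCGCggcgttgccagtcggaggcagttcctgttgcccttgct
Psmb6, chr11:70525107-70525356, plus strand: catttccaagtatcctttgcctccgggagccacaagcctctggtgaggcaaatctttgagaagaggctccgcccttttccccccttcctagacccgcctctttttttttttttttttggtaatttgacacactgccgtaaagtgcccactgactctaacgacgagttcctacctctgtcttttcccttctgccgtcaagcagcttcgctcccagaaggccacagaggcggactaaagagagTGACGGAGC

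The antioxidant element was found in 5 of the 43 windows (11.6%) and in 10.2% of all 32851 windows of that length. Its carriers were Psmb5, Psmb6, Psmc6, Psmd9 and Psmd12, with log2 changes of 0.02, -0.17, -0.24, -0.17 and -0.02, none past the threshold. In Psmb5 the match TGACGTCGC spans bases 47 to 39 before the start and in Psmb6 the match TGACGGAGC spans bases 9 to 1. The full cyclic AMP element was in 0 of the 43 windows and in 1.55% of all windows. A CCAAT box was in 15 of the 43 (34.9%) and in 33.9% of all windows. Psmd10 held 3 of these boxes, at bases 230, 47 and 24 before the start, and the windows of Psmd8, Psmg3 and Psmg4 held none of the 3 motifs. Of the 11 called genes with a window, 2 held a CCAAT box (Psmd10 and Psme3) and 0 the antioxidant element. No matches overlapped, and a match describes letters, not binding.

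Few core genes passed the threshold. Of 16, 1 rose and 0 fell, or 6.25% called against 27.9% of all genes (limma). At a level of at least 7.5, where 14 of the 16 lie, 41.5% of genes were called. At an unadjusted p under 0.05 there were 3 core genes, or 18.8%, against 7973 of all 19938 genes. The changes that did not pass ran from -0.23 for Psma7 to 0.18 for Psma6. The medians were -0.04 for the alpha and -0.03 for the beta genes. That of the beta genes turned positive with quantile normalization (0.02), with cyclic loess (0.03) and without DMSO replicate 3 (0.0073). Over the 16 genes the 95% intervals of the change reached from -0.40 to 0.47 on the log2 scale.

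The 3 catalytic genes did not pass. Psmb5, which encodes the chymotrypsin-like site, read 10.33, 10.40 and 10.42 on the DMSO arrays and 10.34, 10.58 and 10.30 on the FR arrays. The FR array with 10.58 was the highest of the 6, the groups overlapped, and the change was 0.02 (95% interval -0.19 to 0.23, adjusted p = 0.872). Psmb6, with the caspase-like site, read 10.17, 10.29 and 10.29 on the DMSO arrays and 10.10, 10.18 and 9.96 on the FR arrays. These groups overlapped as well (change -0.17, interval -0.37 to 0.03, adjusted p = 0.193). Psmb7, with the trypsin-like site, read 10.27, 10.26 and 10.38 on the DMSO arrays and 10.37, 10.16 and 10.18 on the FR arrays, with 1 FR array inside the DMSO range and the other two below it (change -0.06, interval -0.26 to 0.13, adjusted p = 0.619). The log2 differences of the structural beta genes were -0.21 (Psmb2, groups not overlapping, adjusted p = 0.0775, and 0.0476 with centring, 0.0390 with dim genes left out and 0.0136 with a variance trend), -0.06 (Psmb4), 0.01 (Psmb1) and 0.07 (Psmb3). The other probe set of Psmb3 gave -0.25 (adjusted p = 0.103), so the sign for that gene depends on the probe set. No probe positions were used here, so whether either probe set reads a copy elsewhere in the genome was not determined. The thymus-specific Psmb11 showed a difference of 0.16 at a level of 5.55 with DMSO and 5.71 with FR.

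Among the alpha genes the brightest probe set of Psma5 was the only one that passed. It read 10.29, 10.31 and 10.36 on the DMSO arrays and 10.65, 10.65 and 10.54 on the FR arrays, and all FR arrays lay above all DMSO arrays (log2 change 0.30, SE 0.08, adjusted p = 0.0196, 1.23-fold). Its other probe set gave a change of 0.07 (adjusted p = 0.526), and Psma5 missed the threshold with the mean of both (adjusted p = 0.110), with arrays centred on their medians (0.0703), without DMSO replicate 1 (0.0754) and without DMSO replicate 2 (0.0664). RefSeq lists a pseudogene of it, Psma5-ps, and with no probe positions used here, which copy each probe set reads was not determined. Psma7 lay lower on every FR array (change -0.23, adjusted p = 0.0543). It passed with centring (0.0310), with dim genes left out (0.0249) and with a variance trend (0.00258). The other changes were -0.16 for Psma2, -0.11 for Psma4, -0.08 for Psma1, 0.01 for Psma3 and 0.18 for Psma6, and the 3 probe sets of Psma3 gave 0.01, 0.03 and 0.02. Psma6 passed with cyclic loess (adjusted p = 0.0393) and with a variance trend (0.0199). The testis-specific Psma8 read 3.68 with DMSO and 3.70 with FR (change 0.01).

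In the regulatory particle 4 of 17 genes fell (23.5%) and 0 rose, against 14.5% and 13.4% of all genes (limma). All 17 lie at a level of at least 7.5, where 28.0% of genes fell and 13.5% rose. The median was -0.20, against -0.09 at that level, and 14 of the 17 differences were negative. The mean level of the 17 was 9.53, 9.56 and 9.55 on the DMSO arrays and 9.44, 9.37 and 9.29 on the FR arrays, without overlap. The mean over all 5510 genes at a level of at least 7.5 did not overlap either. It was 8.76, 8.78 and 8.78 on the DMSO arrays and 8.75, 8.69 and 8.64 on the FR arrays. Whether the regulatory particle and the core differed in their change was not tested. The ATPase genes, whose products form the unfolding ring, had 0 of 6 called by limma (3 at an unadjusted p under 0.05, against 40.0% of all genes, and up to 3 past the threshold with a variance trend and 2 without FR replicate 1). Those passing without FR replicate 1 were Psmc5 and Psmc6 (adjusted p = 0.0347 and 0.0289). Psmc5 also passed with centring (0.0395) and with dim genes left out (0.0315), and Psmc1 with the mean of probe sets (0.0468). The changes were -0.24 for Psmc6, -0.23 for Psmc5, -0.20 for Psmc1, -0.19 for Psmc3, -0.13 for Psmc2 and 0.05 for Psmc4, the only positive value of the 6. The second probe set of Psmc1 passed with a change of -0.28 (adjusted p = 0.0442).

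Of the base genes outside the ATPase ring, Psmd2 fell. This scaffold gene, whose product also docks ubiquitin shuttle proteins, read 9.76, 9.81 and 9.70 on the DMSO arrays and 9.55, 9.49 and 9.31 on the FR arrays, with all FR arrays below all DMSO arrays (log2 change -0.31, SE 0.09, adjusted p = 0.0279). Its other probe set gave -0.19 (adjusted p = 0.131). It missed the threshold without DMSO replicate 1 (adjusted p = 0.0772), 2 (0.0971) or 3 (0.0544), without FR replicate 3 (0.0794), with cyclic loess (0.0613) and with the mean of probe sets (0.0571). The log2 difference was -0.22 for the ubiquitin receptor gene Psmd4 (adjusted p = 0.0988, and 0.0427 without FR replicate 2) and -0.09 for the scaffold gene Psmd1. Psmd4 also passed with a variance trend (0.0281).

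In the lid 3 of 8 genes fell (37.5%, against 14.5% of all genes and 28.0% at a level of at least 7.5, where all 8 lie) and 0 rose, with a median of -0.21. Psmd8, a structural lid gene, read 10.08, 10.23 and 10.16 on the DMSO arrays and 9.61, 9.60 and 9.56 on the FR arrays. The lowest DMSO array stood well above the highest FR array, and the fall was 1.49-fold (log2 change -0.57, SE 0.08, adjusted p = 0.000404). The group means of Psmd8 were 10.16 ± 0.08 with DMSO and 9.59 ± 0.03 with FR (mean ± SD, n = 3). Psmd7, which encodes the partner of the deubiquitinase, read 10.01, 9.98 and 9.88 on the DMSO arrays and 9.64, 9.45 and 9.52 on the FR arrays. It was 1.34-fold lower, again without overlap (log2 change -0.42, SE 0.09, adjusted p = 0.00461). The group means of Psmd7 were 9.96 ± 0.07 with DMSO and 9.54 ± 0.10 with FR (mean ± SD, n = 3). Psmd11, another structural gene, read 9.17, 9.11 and 9.20 on the DMSO arrays and 8.96, 8.84 and 8.87 on the FR arrays. The groups did not overlap (log2 change -0.27, SE 0.08, adjusted p = 0.0300), and Psmd11 missed the threshold without DMSO replicate 1, 2 or 3 (adjusted p = 0.0924, 0.0592 and 0.105), without FR replicate 2 or 3 (0.0734 and 0.0630), with quantile normalization (0.0693) and with cyclic loess (0.0939). The deubiquitinase gene Psmd14 itself showed a difference of -0.15 (adjusted p = 0.191). The differences of the other lid genes were -0.26 (Psmd13, adjusted p = 0.0787, and 0.0174 without FR replicate 1), -0.02 (Psmd12), 0.03 (Psmd3) and 0.14 (Psmd6). Psmd13 also passed with centring (0.0440), with dim genes left out (0.0386) and with a variance trend (0.0345).

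**Figure D3:**
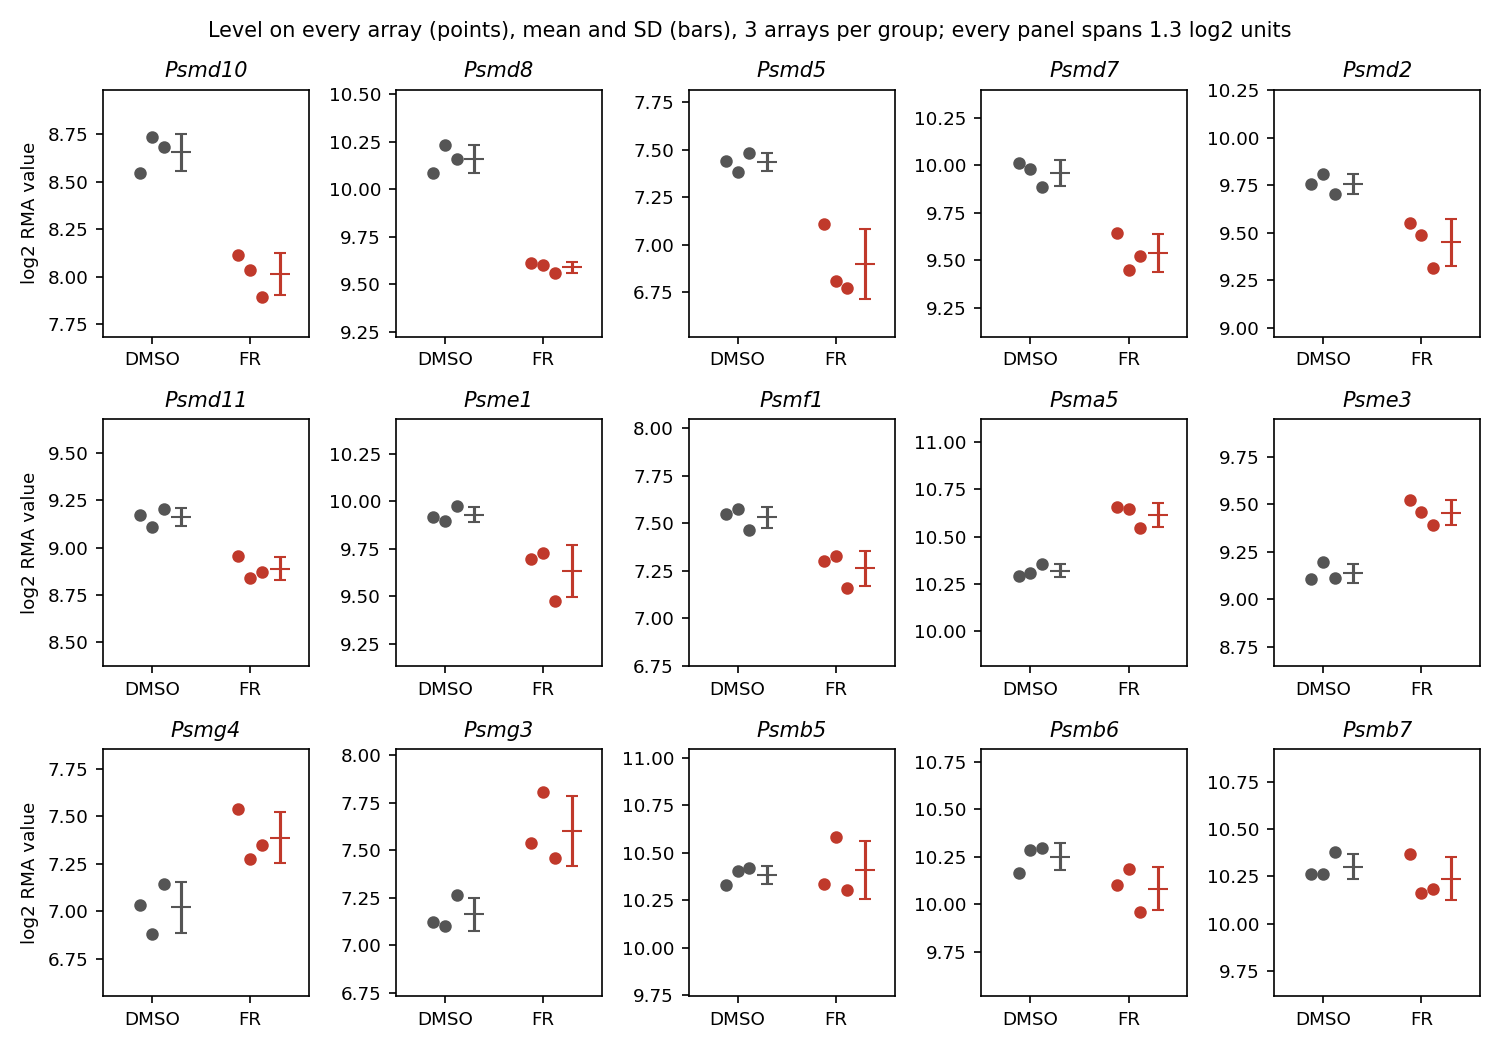
Log2 RMA value on each of the 3 DMSO and 3 FR arrays for the 12 genes that passed and the 3 catalytic genes, with mean and SD beside the points and the same 1.3-unit span in every panel. The groups lie apart for all 12, most widely for Psmd10, Psmd8 and Psmd5, while those of Psmb5, Psmb6 and Psmb7 overlap.

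Assembly chaperone genes went both ways. Of 7, 2 fell and 2 rose (57.1% called, against 27.9% of all genes), and their median of 0.08 was -0.01 without DMSO replicate 1. Both falls were of chaperones of the ATPase base. Psmd10, also known as gankyrin, holds the ATPase Psmc4 during assembly and is studied as an oncoprotein; it read 8.55, 8.74 and 8.68 on the DMSO arrays and 8.12, 8.04 and 7.90 on the FR arrays. No FR array came near the DMSO range, and its 1.56-fold fall was the largest change of any member (log2 change -0.64, SE 0.09, adjusted p = 0.000454). The group means of Psmd10 were 8.65 ± 0.10 with DMSO and 8.02 ± 0.11 with FR (mean ± SD, n = 3). Psmd5, which holds Psmc2, read 7.44, 7.38 and 7.48 on the DMSO arrays and 7.11, 6.81 and 6.77 on the FR arrays. Its FR arrays were all lower, FR replicate 1 the least so, and the fall was 1.45-fold (log2 change -0.54, SE 0.10, adjusted p = 0.00266). The group means of Psmd5 were 7.44 ± 0.05 with DMSO and 6.90 ± 0.18 with FR (mean ± SD, n = 3). The third base chaperone gene, Psmd9, showed a difference of -0.17 (adjusted p = 0.225), and the client genes named here did not pass (Psmc4 0.05, Psmc2 -0.13).

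Both rises were of chaperones of the core. Psmg3 and Psmg4 encode the partners in a dimer that guides the alpha ring. Psmg3 read 7.12, 7.10 and 7.26 on the DMSO arrays and 7.54, 7.81 and 7.46 on the FR arrays, with every FR array above the DMSO range (1.36-fold higher, log2 change 0.44, SE 0.11, adjusted p = 0.0101). The group means of Psmg3 were 7.16 ± 0.09 with DMSO and 7.60 ± 0.18 with FR (mean ± SD, n = 3). Psmg4 read 7.03, 6.88 and 7.14 on the DMSO arrays and 7.54, 7.28 and 7.35 on the FR arrays, again without overlap (1.29-fold higher, log2 change 0.37, SE 0.10, adjusted p = 0.0210). Psmg4 missed the threshold without DMSO replicate 1 (adjusted p = 0.0536), DMSO replicate 2 (0.0896) or FR replicate 1 (0.0595). The differences of the other alpha ring dimer genes were 0.12 (Psmg1, adjusted p = 0.449) and 0.08 (Psmg2, adjusted p = 0.633). All 4 Psmg values were positive and all 3 base chaperone values negative, and the contrast between these sets was not tested.

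Genes for alternative caps of the core and its inhibitor went both ways: of 5, 1 rose and 2 fell (60.0% called, against 27.9% of all genes), with a median of -0.21. Of the 5, 4 lie at a level of at least 7.5, where 41.5% of genes were called and the median was -0.09. Psme3, whose product forms an activator found in the nucleus, rose: it read 9.10, 9.19 and 9.11 on the DMSO arrays and 9.52, 9.46 and 9.39 on the FR arrays. All FR arrays were higher (1.25-fold, log2 change 0.32, SE 0.08, adjusted p = 0.0146), and the gene missed the threshold without DMSO replicate 1 (adjusted p = 0.0602), without DMSO replicate 3 (0.0567) and with arrays centred on their medians (0.0508). Psme1, a subunit gene of the interferon-inducible activator, fell: it read 9.92, 9.90 and 9.97 on the DMSO arrays and 9.70, 9.73 and 9.47 on the FR arrays, and FR replicate 3 was the lowest of the 6 (log2 change -0.30, SE 0.09, adjusted p = 0.0348). Its partner Psme2 read 8.56, 8.29 and 8.37 on the DMSO arrays and 8.30, 8.27 and 8.03 on the FR arrays. DMSO replicate 2 lay under FR replicate 1 there, so the groups overlapped (change -0.21, adjusted p = 0.167). A further probe set shared by Psme2 and its near-identical copy Psme2b stayed outside the test and read 7.96 with DMSO and 7.65 with FR. Its log2 difference was -0.31, and its groups did not overlap (7.92, 7.93 and 8.04 with DMSO, 7.77, 7.57 and 7.61 with FR). RefSeq places 1 protein-coding gene between Psme1 and Psme2 on chromosome 14.

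Psme4, which encodes an activator that takes in acetylated histones, read 9.21, 9.15 and 9.25 on the DMSO arrays and 9.31, 9.09 and 9.24 on the FR arrays; the groups overlapped fully (change 0.01, interval -0.19 to 0.20, adjusted p = 0.959). Psmf1, named as an inhibitor of the core, fell: it read 7.55, 7.58 and 7.47 on the DMSO arrays and 7.30, 7.33 and 7.16 on the FR arrays without overlap (log2 change -0.27, SE 0.09, adjusted p = 0.0394). The calls of Psme1 and Psmf1 were both lost without DMSO replicate 1 (adjusted p = 0.0840 and 0.114), 2 (0.0741 and 0.127) or 3 (0.110 and 0.0651), without FR replicate 3 (0.0951 and 0.104), with quantile normalization (0.0641 and 0.0859) and with cyclic loess (0.0795 and 0.0663). The symbol matches that are no subunit showed differences of 0.15 (Psmc3ip, a meiotic recombination factor, adjusted p = 0.384) and -0.07 (Psme3ip1, adjusted p = 0.673).

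The interferon-inducible beta genes that replace the catalytic ones in the immunoproteasome did not pass in the main test. The log2 difference of Psmb8, which takes the place of Psmb5, was -0.34 (adjusted p = 0.0522; it passed in 5 of 15 alternatives, with 0.0439 without DMSO replicate 3, 0.0366 without FR replicate 2, 0.0209 with centring, 0.0224 with dim genes left out and 0.0225 with a variance trend), that of Psmb9 -0.04 (0.801) and that of Psmb10 0.03 (0.808).

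Around the proteasome, 21 of 30 listed genes for its assembly, its regulation and the delivery of ubiquitin-tagged proteins had a probe set of their own; 2 rose and 6 fell, or 38.1% called against 27.9% of all genes. Of the 21, 20 lie at a level of at least 7.5, where 41.5% were called, and the median change was -0.12, against -0.09 at that level. The transcription factors of proteasome genes went opposite ways. Nfe2l1, the driver of the compensatory response, read 9.51, 9.63 and 9.52 on the DMSO arrays and 9.12, 9.13 and 8.93 on the FR arrays and fell without overlap (log2 change -0.49, SE 0.09, adjusted p = 0.00210). Nfe2l2, its relative in the oxidative stress response, read 10.28, 10.29 and 10.34 on the DMSO arrays and 10.72, 10.62 and 10.80 on the FR arrays and rose (log2 change 0.41, SE 0.08, adjusted p = 0.00382). Both calls passed in all 15 alternatives. Ngly1, the glycanase that Nfe2l1 needs for its activation, rose by 0.36 (adjusted p = 0.0132), which missed the threshold without DMSO replicate 2 (0.0585).

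The falls beside Nfe2l1 were those of Uba6, a ubiquitin-activating enzyme gene (-0.39, adjusted p = 0.0119), Usp14, which encodes a deubiquitinase bound to the proteasome (-0.33, 0.0109), and Txnl1, which encodes a thioredoxin-like protein bound to the regulatory particle (-0.32, 0.0223). Named after their values were seen, the other 2 were the segregase gene Vcp (-0.29, 0.0358) and its cofactor gene Nploc4 (-0.29, 0.0291). Uba6 and Usp14 passed in all 15 alternatives, while Txnl1, Vcp and Nploc4 lost the call without single arrays, with adjusted p of up to 0.0777 without DMSO replicate 3, 0.106 without DMSO replicate 2 and 0.110 without DMSO replicate 3. Cyclic loess ended the same calls (adjusted p = 0.0528, 0.0663 and 0.0667), and quantile normalization those of Vcp (0.0564) and Nploc4 (0.0718). The subunit gene Sem1 (0.07) and the core maturation gene Pomp (0.06) did not pass, nor did the other deubiquitinase gene Uchl5 (-0.19).

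**Figure D4:**
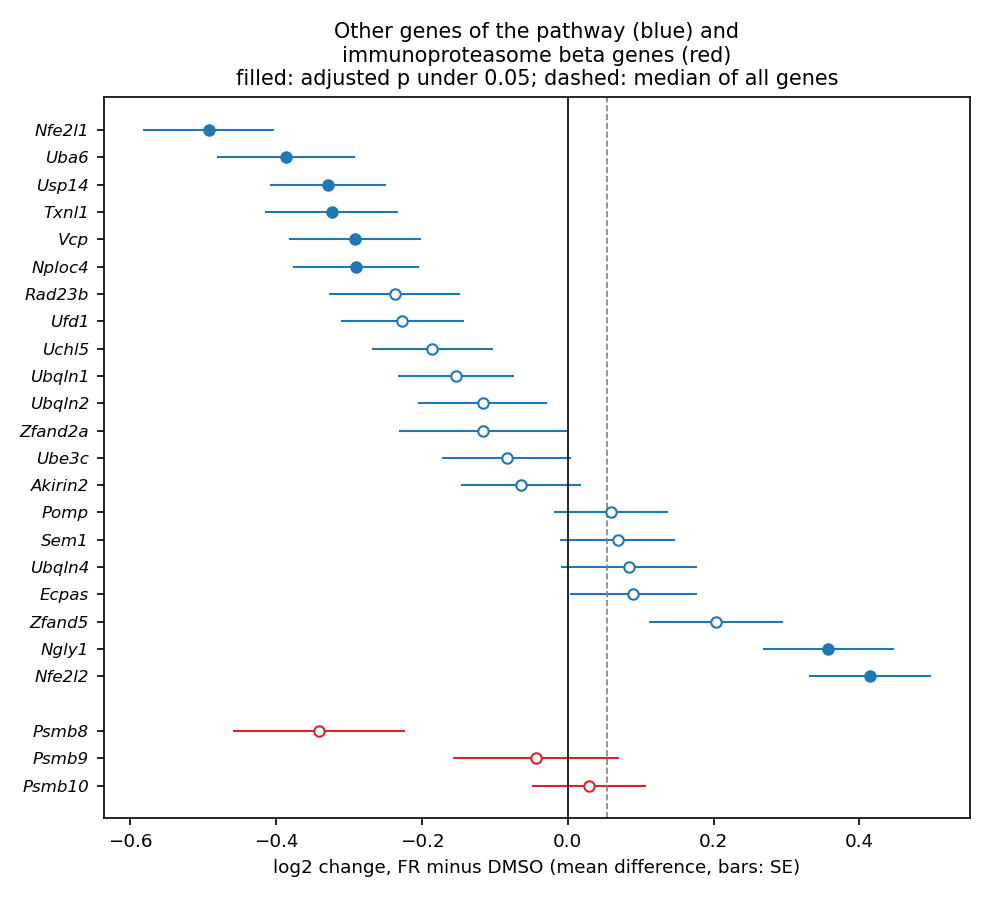
Log2 change with its standard error for 21 other genes of the pathway in blue and the 3 immunoproteasome beta genes in red, with filled points for adjusted p under 0.05. Nfe2l1 at -0.49 and Nfe2l2 at 0.41 mark the ends of the range, and the red points are all open.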

How the data were processed

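Total RNA was hybridised as biotinylated cRNA to 6 one-colour arrays, per the labels' protocols. The deposited table gives log2 values for 35556 probe sets; the submitters' processing notes name RMA and oligo for them, and tool versions are absent from the sources used here. Nothing further was applied to these values before the main test. Of the probe sets 21789 had 1 gene symbol, 1621 several and 12146 no listed gene; those with several were left out.

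Changes were fitted on all 19938 genes with limma 3.58.1 in R 4.3.3 (lmFit, eBayes, group as the only term, two-sided, Benjamini-Hochberg, threshold 0.05). The script was tested on simulated data with 200 of 19938 genes changed. It recovered 44 of 100 changes of 0.5 log2 units and 90 of 100 changes of 1, with 5 false calls. Far fewer genes were changed there than the 27.9% called in the data, so these recovered shares may not carry over. Intervals are moderated 95% intervals, and the number of arrays limits the precision. The members, classes and lists were chosen with earlier results of these data known. Every member is named; values on each array are given for the catalytic genes, the activators and up to 3 called members with the largest change per class, and of the other pathway genes up to 4 rises and 4 falls are named. Alternatives were quantile normalization, centring, cyclic loess, a filter on dim genes, other treatments of probe sets, leave-one-out fits, weights per array, a robust fit with a variance trend, and a block for the replicate number. A level minimum of 7.5 was added after the values were seen. Scan batches were not analysed here.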

Additional observations from a re-analysis of the deposited data

How the results depend on the processing

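Of 1063 values of single genes under 15 alternatives, 970 kept their side of the threshold, 58 lost the call, 35 gained it, and 0 called values changed sign; 37 of the 970 changed sign with no call in either fit. The number of members lower, 8 in the main test, was 5 with quantile normalization, 4 with cyclic loess and 15 with a variance trend; the number higher, 4 in the main test, was 2 with centring. Leaving out single arrays gave 4 to 11 members lower, 1 to 4 higher and 4033 to 5914 genes called in all. Centring gave 35.3% of all calls higher and 64.7% lower, against 48.0% and 52.0% in the main test. No scaling moved the median of all genes by over 0.1.

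Medians moved by more than the spread between arrays as follows: with centring to -0.15 for all members, -0.0925 for core alpha, -0.0818 for core beta and -0.26 for lid genes; with quantile normalization to 0.0207 for core beta, -0.15 for lid and -0.14 for activator and inhibitor genes; with cyclic loess to 0.0298 for core beta, -0.12 for ATPase, -0.13 for lid and -0.12 for activator and inhibitor genes; and with dim genes left out to -0.0827 for core alpha. Without single arrays the medians ranged over -0.138 to -0.0641 for all members, -0.0879 to -0.0041 for core alpha, -0.0465 to 0.00735 for core beta, -0.211 to -0.128 for ATPase, -0.29 to -0.155 for other base, -0.251 to -0.15 for lid, -0.257 to -0.121 for activator and inhibitor and -0.0102 to 0.128 for assembly chaperone genes. The cause of these moves was not tested.

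With the replicate number as a block, 5 members were lower and 4 higher, and the FR against DMSO comparison called 4977 genes in all. The block ended the calls of Psmd11, Psme1, Psmf1 and Vcp (adjusted p = 0.0510, 0.0603, 0.0513 and 0.0559) and no other named call. The numbers were not taken to pair the arrays, since deviations from the group means correlated at -0.0734, 0.0471 and -0.0344 between arrays of the same number.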
